A study of Homo sapiens with 8 samples.

Results

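The nuclear-encoded subunits of the respiratory chain and ATP synthase were followed in Huh7 cells, an established hepatocellular carcinoma line, after depletion or overexpression of UPF1. Members were chosen by gene symbol, a rule that uses no measured value, though earlier results of these data were known. Symbols made of NDUFA, NDUFB, NDUFC, NDUFS or NDUFV and a closing number were taken, as were SDHA to SDHD. Symbols that begin with UQCR, with ATP5, or with COX, a number from 4 to 8 and the letter A, B or C were also taken, and CYC1 was added. Symbols with a hyphen and 6 pseudogenes were left out. This gave 79 genes of the 17076 listed. Of these, 36 belong to complex I, 4 to complex II, 10 to complex III, 11 to complex IV and 18 to complex V. NDUFA4 was counted with complex IV, where its protein resides. COX4I1, which has the letter I after its number, is not matched and is described with the related genes.

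RNA-seq compared 4 groups of 2 libraries. For depletion, cells that received UPF1 siRNA (siUPF1) were set against cells that received a scrambled siRNA (siControl). For overexpression, cells given a MYC-UPF1 vector were set against cells given the MYC vector alone, where MYC is an epitope tag and not the transcription factor. All groups were Huh7 cells, and neither the time after transfection nor the siRNA used for sequencing is stated. The values are FPKM, fragments scaled to the length of the exons and to the number of mapped fragments in the library.

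Complexes I to IV pass electrons from NADH and succinate to oxygen, and complexes I, III and IV pump protons across the inner mitochondrial membrane. Complex V, the ATP synthase, uses the returning protons to turn its c ring and central stalk and make ATP. All subunits of complex II are encoded in the nucleus, whereas the other complexes mix nuclear subunits with a few encoded by mitochondrial DNA. UPF1 is an RNA helicase central to nonsense-mediated mRNA decay, which removes transcripts with premature stop codons and also lowers many intact mRNAs.

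UPF1 mRNA followed the labels. It was at 44.5 and 47.4 FPKM in siControl and at 20.7 and 21.9 FPKM in siUPF1, a log2 change of -1.07 (limma adjusted p = 0.0308). It was at 45.2 and 57.4 FPKM in MYC and at 2835 and 2484 FPKM in MYC-UPF1, a log2 change of 5.68 (limma adjusted p = 8.91e-09). All 9 hepatocyte markers were listed, with AFP between 11090 and 12510 FPKM and ALB between 6550 and 8371 FPKM. Of 10 markers of fibroblasts, endothelium, immune cells and biliary cells, 5 were listed, and the highest, CD68, lay between 2.95 and 3.84 FPKM.

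In the subunit mRNAs, the siUPF1 duplicates agreed less well than the others. Over all genes with a mean of at least 0.5 FPKM, siUPF1 was close to MYC. Median absolute log2 gaps there were 0.14 in siUPF1, 0.135 in MYC, 0.112 in MYC-UPF1 and 0.0845 in siControl. Between siUPF1 replicates, 18 of the 79 subunit mRNAs differed by more than 0.3 on the log2(FPKM + 1) scale, against 0 in siControl, 4 in MYC and 2 in MYC-UPF1. The widest siUPF1 gaps, replicate 2 minus replicate 1, were -0.79 for SDHC and 0.54 for NDUFB7. The gap rose with the GC content of the transcript, with a Spearman correlation of 0.58 across the 79 members and 0.61 across all genes, and such a slope was also present between the MYC replicates (0.57 across members) and with the opposite sign between the MYC-UPF1 replicates (-0.44). These correlations are descriptions, since all genes of a library share its preparation. Summed FPKM lay between 403902 and 455592 per library. FPKM does not give the number of reads, so sequencing depth and counting error are not known.

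Some promoters of the subunit genes held short motifs of nuclear factors that drive respiratory genes. The 300 bases from 250 before to 50 after the start site were read from RefSeq (GRCh38.p14) for the 66 members with an entry. The NRF1 motif GCATGCGC stood on either strand in 13 of 66 promoters (19.7%), against 3.27% of 27305 promoters in all. The ETS motif CCGGAAG, bound by the GABP factor, stood in 19 of 66 (28.8%) against 10.7% of all promoters, and the YY1 motif AAGATGGC in 11 of 66 (16.7%) against 3.03%. Any of the 3 stood in 33 of 66 promoters, against 15.6% of all. The 27305 promoters were not matched to the members in expression, GC content or the place of the start codon. The YY1 letters contain ATG, and most of their matches began after the start site. Whether these matches are start codons of the subunits was not tested. In the windows printed here no motif overlaps another of the 3, and in ATP5F1C the NRF1 letters also read as a match on the opposite strand that overlaps the one in capitals. SDHB, the iron-sulfur subunit of complex II, is shown because its promoter held all 3 motifs and its mRNA passed the unadjusted test after depletion. The windows lie on the minus strand at chr1:17054214-17054243, chr1:17054142-17054171 and chr1:17054004-17054033, and capitals mark the motif. In that order the motifs begin at -200, -128 and 11 relative to the start site, so the YY1 letters lie within the transcript.
SDHB NRF1: aagccaaatggGCATGCGCcgctactgcgc
SDHB ETS: cacccgggaaaCCGGAAGccgcctcccact
SDHB YY1: cgtcaggagccAAGATGGCggcggtggtcg

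Of the 7 subunit mRNAs that passed that test, 6 had a promoter entry and UQCRB had none. Besides SDHB, 3 of the 6 held a motif, shown here for comparison. The UQCR11 window is at chr19:1605561-1605590 on the minus strand, the UQCRQ window at chr5:132866577-132866606 on the plus strand and the ATP5F1C window at chr10:7788146-7788175 on the plus strand.
UQCR11 ETS: tccaaccctcgCCGGAAGttactgtaagtg
UQCRQ ETS: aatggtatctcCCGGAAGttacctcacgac
ATP5F1C NRF1: ggagcttcggcGCATGCGCgctgaggcctg
UQCR11 was higher and UQCRQ lower after depletion, so the same ETS letters stood before genes of either direction. Members with the ETS motif had a median log2 fold change of -0.067 after depletion (n = 19) and those without it -0.017 (n = 47). For the NRF1 motif the medians were -0.012 (n = 13) and -0.018 (n = 53). For YY1 they were 0.0080 (n = 11) and -0.018 (n = 55). These are matches of letters and not shown binding sites.

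Subunit mRNAs were abundant. The median of the members' mean over the 8 libraries was 65.6 FPKM, against 3.98 FPKM over all genes, and 31 of 79 members had a mean of at least 100 FPKM, 75 of at least 10 and 78 of at least 1. Together they made up 1.61% to 1.87% of summed FPKM. Complexes IV and V had the highest medians, at 138 and 128 FPKM, followed by complex I at 52.2, complex III at 48.1 and complex II at 35.9 FPKM. The order of the members hardly varied between libraries, with Spearman correlations of 0.97 to 0.997, and the median ratio of a member's highest to lowest library was 1.3. Without UQCRHL, the widest ratio was 1.77, for SDHC.

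The most abundant member was ATP5F1B, the catalytic beta subunit of complex V, at 488 and 504 FPKM in siControl, 474 and 436 in siUPF1, 496 and 509 in MYC, and 488 and 466 in MYC-UPF1. Both libraries of each treated group were below both of their controls. The lowest of complex V was ATP5F1E, the epsilon subunit of the central stalk, with a mean of 33.5 FPKM. In complex I, NDUFA13 was highest with a mean of 244 FPKM and NDUFV3, a small flavoprotein subunit, lowest with 4.82 FPKM. Among the complex IV members, which leave out COX4I1, COX6A1 was highest with 271 FPKM and COX7A2L, which joins complexes III and IV into supercomplexes, lowest with 24.2 FPKM.

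UQCRH, the hinge protein that aids electron transfer to cytochrome c, had a mean of 242 FPKM. UQCRHL, an almost identical copy, had 0.934 FPKM, and reads that cannot be placed between the pair make its value uncertain. Among genes for alternative forms of complex IV subunits, COX6A1, COX6B1, COX7A2, COX7B and COX8A were members. The other forms named for muscle or testis (COX6A2, COX6B2, COX7A1, COX7B2 and COX8C) match the symbol rule but were not among the genes listed. COX6A1 lay between 267 and 275 FPKM in every library, and COX6B1 between 244 and 268 FPKM. COX7A2 lay between 159 and 197 FPKM, COX8A between 158 and 197 FPKM and COX7B between 24.4 and 32.0 FPKM.

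The c ring of ATP synthase is built from 1 mature protein that 3 genes encode. ATP5MC1 supplied 38.9% to 43.2% of their summed FPKM, ATP5MC2 38.5% to 43.9% and ATP5MC3 15.3% to 18.7% over the 8 libraries. ATP5MC3 took 18.2% and 17.2% in siControl and 17.3% and 15.3% in siUPF1, and 17.7% and 16.8% in MYC and 17.9% and 18.7% in MYC-UPF1. ATP5MC1 and ATP5MC2 were thus about equal, and ATP5MC3 was the smallest contributor in every library. The summed c ring FPKM was 486 and 506 in siControl and 481 and 397 in siUPF1, and it was lowest in siUPF1 replicate 2.

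After UPF1 depletion, most subunit mRNAs did not pass the test, and those that did moved both ways. In siUPF1, 2 of 79 members were higher and 5 lower at an unadjusted limma p of 0.05. Background shares over the 13535 genes tested were 16.0% higher and 5.51% lower, 21.5% in all, and the members' share was 8.86%. The gap in the share called in either direction depended on the fit. With all 8 libraries in 1 fit, 4 members were higher and 12 lower, a share of 20.3% beside 22.5% of all genes. The directions differed in that fit, since 2218 of the 13535 genes were higher and 821 lower. No member passed a Benjamini-Hochberg adjusted p of 0.05 over all genes (lowest limma adjusted p = 0.159), and 0.0369% of all genes did. In bulk RNA, fewer cells and less RNA per cell cannot be told apart. The median log2 fold change of the members was -0.014, against 0.057 over all genes tested.

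Of the 79 members, 14 had both siUPF1 libraries above both controls, where 37.5% of all genes did, and 25 had both below, where 18.5% of all genes did. The split between directions depended on scaling. With quantile normalization 2 members were higher and 6 lower, and with median centring 2 and 10. Over all genes, 2162 higher and 746 lower became 1417 and 1408 with quantile normalization and 1602 and 1271 with median centring.

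Confidence intervals bound the changes. The 95% interval of every member lay within a log2 change of 1 in either direction, that of 61 members within 0.5 and that of 15 within 0.25. With 2 libraries in each group the smallest two-sided p of an exact test is 0.333, and the limma p-values lean on a variance shared across genes. Nothing in the labels says that the libraries came from separate cultures, so the p-values measure only the spread between these libraries.

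In complex I, 1 of 36 mRNAs rose and 1 fell at the unadjusted threshold, beside 16.0% and 5.51% of all genes, and the median log2 fold change was 0.013. NDUFA2, an accessory subunit of the NADH-oxidizing arm (GRCh37 chromosome 5, 140018325 to 140027356, minus strand), was at 42.4 and 41.4 FPKM in siControl and at 49.6 and 51.9 in siUPF1. It was at 46.1 and 45.6 FPKM in MYC and at 45.7 and 44.4 in MYC-UPF1. The log2 fold change after depletion was 0.27 (limma adjusted p = 0.167, standard error 0.0894). Both siUPF1 libraries were above all other libraries.

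NDUFB3, an accessory subunit of the proton-pumping membrane arm (chromosome 2, 201936156 to 201950473, plus strand), was at 101 and 93.0 FPKM in siControl and at 83.7 and 71.1 in siUPF1. In MYC it was at 83.5 and 78.5 FPKM and in MYC-UPF1 at 80.5 and 86.0. After depletion its log2 fold change was -0.33 (limma adjusted p = 0.174, standard error 0.112). The siUPF1 and siControl libraries did not overlap, but siUPF1 replicate 1 lay within the range of the MYC and MYC-UPF1 libraries.

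The 7 nuclear core subunits, which form the electron-transferring arm, had a median log2 fold change of 0.099, with 5 of 7 above 0. None passed the threshold. Over all genes, 8247 of 13535 were above 0 and 21.5% passed. NDUFV1, which binds NADH and flavin, was at 183 and 202 FPKM in siControl and at 211 and 258 in siUPF1, a log2 change of 0.28 (limma adjusted p = 0.249). NDUFS7, which carries the last iron-sulfur cluster before ubiquinone, was at 39.2 and 41.6 FPKM and at 44.1 and 49.2, a log2 change of 0.20 (limma adjusted p = 0.285). Both siUPF1 libraries exceeded both controls for these genes. NDUFS1, the largest iron-sulfur subunit, went the other way without passing, at 13.3 and 12.7 FPKM in siControl and 12.6 and 11.7 in siUPF1. The core subunits had a median GC content of 53.7% against 47.0% for all members, and with the trend for GC content and length removed their median was 0.010.

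The complex I genes with the widest estimates, singled out after their values were seen, did not pass. NDUFB4, an accessory subunit of the membrane arm, was at 166 and 164 FPKM in siControl and at 154 and 104 in siUPF1, a log2 change of -0.38 (limma adjusted p = 0.264). NDUFB7, another membrane-arm subunit, was at 94.9 and 100.5 FPKM and at 100 and 146 (0.30, limma adjusted p = 0.336). In both genes the low or high value was that of siUPF1 replicate 2 alone. Without that library the estimates were -0.09 for NDUFB4 and 0.03 for NDUFB7.

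In complex II, SDHB alone of 4 mRNAs fell at the unadjusted threshold, which 5.51% of all genes did. SDHB (chromosome 1, 17345159 to 17380527, minus strand) was at 72.8 and 72.2 FPKM in siControl and at 64.3 and 60.4 in siUPF1, with 60.9 and 58.3 in MYC and 57.8 and 60.0 in MYC-UPF1. The log2 fold change after depletion was -0.22 (limma adjusted p = 0.232, standard error 0.0907). The siControl libraries were the only ones above 70 FPKM.

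SDHA, the flavoprotein that oxidizes succinate, was at 30.9 and 32.8 FPKM in siControl and at 34.3 and 33.4 in siUPF1. Its log2 fold change was 0.09, with a 95% interval from -0.13 to 0.30. The membrane anchors varied most. SDHC was at 18.8 and 16.9 FPKM in siControl, 25.8 and 14.5 in siUPF1, 25.8 and 18.8 in MYC, and 18.6 and 25.5 in MYC-UPF1. In siUPF1, MYC and MYC-UPF1, 1 duplicate was at 25.5 FPKM or more and the other at 18.8 or less, and the interval after depletion ran from -0.44 to 0.66. SDHD was at 43.7 and 45.2 FPKM in siControl and at 45.8 and 30.8 in siUPF1 (-0.24, interval -0.65 to 0.17), and its change was 0.04 without siUPF1 replicate 2.

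In complex III, 1 of 10 mRNAs rose and 2 fell at the unadjusted threshold, where 21.5% of all genes were called, and the median log2 fold change was 0.00098. UQCR11, its smallest subunit (chromosome 19, 1597168 to 1605472, minus strand), was at 63.6 and 62.2 FPKM in siControl and at 71.9 and 84.4 in siUPF1. It was at 61.9 and 61.8 FPKM in MYC and at 59.4 and 59.7 in MYC-UPF1. After depletion its log2 fold change was 0.30 (limma adjusted p = 0.180, standard error 0.107). Both siUPF1 libraries stood above the other 6.

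UQCRB, a small matrix-facing subunit (chromosome 8, 97235175 to 97247774, minus strand), was at 18.5 and 18.7 FPKM in siControl and at 15.7 and 14.3 in siUPF1. In MYC it was at 15.6 and 14.4 FPKM and in MYC-UPF1 at 14.1 and 16.4. The log2 fold change after depletion was -0.29 (limma adjusted p = 0.159, standard error 0.0943). UQCRQ, a small subunit that spans the membrane (chromosome 5, 132202322 to 132204539, plus strand), was at 31.0 and 30.3 FPKM in siControl and at 25.2 and 25.3 in siUPF1. It was at 21.8 and 23.4 FPKM in MYC and at 23.6 and 23.5 in MYC-UPF1. After depletion its log2 fold change was -0.27 (limma adjusted p = 0.161, standard error 0.0877). For both genes siControl was the highest group, and the siUPF1 duplicates were close to each other.

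The catalytic subunits of complex III did not pass. CYC1, which holds the heme of cytochrome c1, was at 66.3 and 63.4 FPKM in siControl and at 66.8 and 61.5 in siUPF1, with an interval from -0.24 to 0.21. UQCRFS1, the Rieske iron-sulfur protein, was at 25.2 and 24.1 FPKM and at 24.7 and 23.1, with an interval from -0.26 to 0.18. The groups overlapped for both. UQCRH was at 267 and 257 FPKM in siControl and at 228 and 248 in siUPF1, both lower, with an interval from -0.37 to 0.08.

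In complex IV, 0 of 11 mRNAs passed, where 21.5% of all genes did, and the median log2 fold change was -0.11. COX7C, a small subunit of the membrane domain, came closest, at 155 and 148 FPKM in siControl and 138 and 115 in siUPF1 (-0.26, limma adjusted p = 0.243). COX5A, on the matrix side, was at 161 and 166 FPKM and at 152 and 126 (-0.24, limma adjusted p = 0.272). Both genes were lower in both siUPF1 libraries. COX6A1 and COX6B1, the most abundant complex IV members, differed by 0.01 and 0.02 on the log2 scale, with intervals from -0.20 to 0.22 and from -0.19 to 0.24.

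In complex V, 1 of 18 mRNAs fell and 0 rose, beside 5.51% and 16.0% of all genes, with a median of -0.12. In 10 of the 18, both siUPF1 libraries lay below both controls, and in 0 both lay above, beside the shares of 18.5% and 37.5% of all genes given for the members as a whole. ATP5F1C, the gamma subunit of the rotating central stalk (chromosome 10, 7830110 to 7849778, plus strand), was at 145 and 153 FPKM in siControl and at 136 and 108 in siUPF1. It was at 132 and 125 FPKM in MYC and at 131 and 135 in MYC-UPF1. The log2 fold change after depletion was -0.30 (limma adjusted p = 0.232, standard error 0.125). The lowest of the 8 libraries was siUPF1 replicate 2, and the change was -0.13 without it.

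The c ring gene ATP5MC3 was at 88.2 and 87.2 FPKM in siControl and at 82.9 and 60.6 in siUPF1 (-0.30, limma adjusted p = 0.283). ATP5F1B had a log2 change of -0.13 with an interval from -0.35 to 0.10. ATP5MG, a membrane subunit, was at 88.7 and 87.8 FPKM in siControl and at 86.5 and 81.9 in siUPF1 (-0.07). Its sign turned to 0.09 with the GC and length trend removed. ATP5F1D, the delta subunit of the central stalk, had the highest estimate of the complex, 0.17, with libraries that overlapped, at 59.8 and 65.2 FPKM and at 60.1 and 82.4.

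These calls depended on which libraries entered the fit. Without siControl replicate 1, 0 members passed the unadjusted limma threshold, where 10.6% of all genes did. Without siControl replicate 2, NDUFB3 alone passed, where 12.6% of all genes did. Without siUPF1 replicate 2, 3 members were higher and 4 lower, a share of 8.86% beside 21.6% of all genes, and NDUFB3, NDUFA2, UQCRB and UQCRQ were among them whereas ATP5F1C, SDHB and UQCR11 were not. SDHC was the only member past the adjusted threshold in that fit (0.50), and it was at -0.28 without siUPF1 replicate 1. Without siUPF1 replicate 1, 12 were higher and 25 lower and 31 passed the adjusted threshold, a share of 39.2% beside 33.5% of all genes. With a single siUPF1 library, the spread comes from the siControl duplicates alone, and that library is assumed to vary as they did.

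The change of a subunit mRNA followed the GC content of its transcript. After depletion the Spearman correlation between GC content and log2 fold change was 0.657 across the 79 members and 0.552 across 13019 genes. After overexpression it was -0.551 across the members and -0.439 across 12773 genes. The points share libraries, and the correlations are descriptions. The 39 members below the median GC content had a median log2 fold change of -0.14 after depletion and 0.021 after overexpression. The 40 members at or above it had 0.026 and -0.048. The higher-GC members thus lay above the lower-GC members after depletion and below them after overexpression.

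When the trend of a library with GC content and length of the transcript was subtracted, the correlation across members was 0.095 after depletion and -0.16 after overexpression. After depletion 3 members were then higher and 2 lower, against 22.6% of all genes called, and 0 passed the adjusted threshold. NDUFA2 (0.27), UQCR11 (0.27), UQCRB (-0.20) and UQCRQ (-0.24) still passed an unadjusted limma p of 0.05. NDUFA6, an accessory subunit of complex I, passed only then (0.20). NDUFB3 (-0.18), ATP5F1C (-0.18) and SDHB (-0.15) no longer passed. Subtracting the trend lowers this correlation by design, so the part of GC content in the original differences was not tested.

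After UPF1 overexpression, 0 of 79 subunit mRNAs passed an unadjusted limma p of 0.05, where 1.43% of 13251 genes did, and 0 passed the adjusted one, where 0.00755% did. The median log2 fold change was -9.52e-05, against -0.014 over all genes. Both MYC-UPF1 libraries were above both controls in 13 members, beside 8.88% of all genes, and below in 13, beside 11.8%. The estimates ran from -0.16 for ATP5F1D to 0.13 for NDUFB1. The 95% interval of all 79 members lay within 0.5 of 0 and that of 51 within 0.25.

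UQCRC1, a core protein of complex III, had the lowest p of the members. It was at 129 and 135 FPKM in MYC and at 119.8 and 117 in MYC-UPF1, both lower, with a log2 change of -0.15 (standard error 0.0738, 95% interval -0.32 to 0.01). ATP5F1D was at 57.1 and 70.9 FPKM in MYC and at 64.1 and 50.2 in MYC-UPF1, and the groups overlapped. NDUFB1, of the membrane arm of complex I, was at 62.9 and 59.9 FPKM and at 68.6 and 65.6, both higher (95% interval -0.06 to 0.31). With the GC and length trend removed, UQCRC1 (-0.11) and the c ring gene ATP5MC2 (-0.13) passed an unadjusted limma p of 0.05, where 2.80% of all genes did.

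The medians of the complexes after overexpression were -0.012 for complex I, -0.015 for complex II, -0.0079 for complex III, 0.015 for complex IV and 0.010 for complex V. The 7 core subunits of complex I had a median of -0.085, with 1 of 7 above 0, and -0.039 with the GC and length trend removed. Over all genes, 5714 of 13251 were above 0 after overexpression. NDUFS7, at 44.2 and 52.8 FPKM in MYC and 43.4 and 43.4 in MYC-UPF1, had the lowest estimate of complex I at -0.15. The single high library of these 4 was MYC replicate 2. NDUFV1 was at 211 and 237 FPKM in MYC and at 207 and 205 in MYC-UPF1 (-0.12), both lower.

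The change after depletion was then set against that after overexpression in 1 fit over the 8 libraries. The difference passed an unadjusted limma p of 0.05 in 10 of 79 members, with 6 higher after depletion and 4 lower, where 15.2% of 13412 genes passed, 11.8% higher and 3.4% lower. No member passed the adjusted threshold, and 0.0224% of all genes did. The higher members were NDUFV1 (0.39), UQCR11 (0.36), NDUFS7 (0.35), UQCRC1 (0.30), NDUFA2 (0.29) and NDUFB2 (0.28). The lower members were NDUFB3 (-0.37), ATP5F1C (-0.35), UQCRQ (-0.33) and COX7C (-0.32). Their limma adjusted p-values lay between 0.246 and 0.317. With median centring 2 members were higher and 9 lower, and with quantile normalization 3 and 7. Over all genes, 1585 higher and 456 lower became 1107 and 776 with median centring and 1024 and 907 with quantile normalization. The split of directions thus depended on scaling, for all genes as for the members. The Spearman correlation of the difference with GC content was 0.71 across the members. With the GC and length trend removed 7 members were higher and 2 lower, where 16.8% of all genes were called.

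Related genes were read from the same fits. Of 57 assembly factors, which build the complexes and insert their cofactors, 8 were higher and 7 lower after depletion at an unadjusted limma p of 0.05, with a median log2 fold change of 0.030. This share of 26.3% lay near the 21.5% of all genes, and 16.0% of all genes were higher and 5.51% lower. The higher ones were COX19 (0.50), ATPAF1 (0.46), SDHAF1 (0.39), COX14 (0.33), UQCC2 (0.30), FOXRED1 (0.25), TACO1 (0.25) and COA1 (0.22). The lower ones were FASTKD3 (-0.46), SDHAF3 (-0.41), TMEM70 (-0.39), HIGD1A (-0.36), COX20 (-0.34), NDUFAF2 (-0.29) and LYRM7 (-0.28). None passed the adjusted threshold.

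ATPAF1, a chaperone of the ATP synthase beta subunit, was at 12.3 and 11.5 FPKM in siControl and at 17.5 and 16.1 in siUPF1 (limma adjusted p = 0.0835). COX19, a copper-related factor of complex IV, was at 5.85 and 5.99 FPKM and at 7.93 and 9.80 (limma adjusted p = 0.0960). Both siUPF1 libraries were well above both controls. ATPAF1 had a log2 change of 0.51 and COX19 of 0.43 with the GC and length trend removed. TMEM70, which helps assemble the c ring, was at 12.2 and 12.5 FPKM in siControl and at 10.3 and 8.15 in siUPF1. These factors of complex V thus moved in opposite directions.

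Of the 4 respiratory genes outside the symbol rule, CYCS, which encodes cytochrome c, fell after depletion. It was at 49.2 and 53.9 FPKM in siControl and at 43.9 and 31.8 in siUPF1, a log2 change of -0.45 (limma adjusted p = 0.174). COX4I1, the first nuclear subunit of complex IV, was at 300.4 and 289 FPKM and at 299.8 and 356 (0.15, limma adjusted p = 0.450), and its groups overlapped. Of 18 regulators of mitochondrial biogenesis, 16 were tested, and 0 were higher and 3 lower after depletion, namely the MYC gene (-0.40), HIF1A (-0.30) and YY1 (-0.26). This share of 18.8% was all lower, where 5.51% of all genes were lower and 16.0% higher. YY1 was at 13.1 and 13.3 FPKM in siControl and at 10.8 and 11 in siUPF1. The NRF1 gene was at 4.76 and 4.71 FPKM and at 4.92 and 5.66 and did not pass (limma adjusted p = 0.466). PPARGC1A, a coactivator of these genes, lay between 0.174 and 0.288 FPKM and was not tested.

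Other short, abundant mRNAs of translation were described in the same way. Of 78 mitochondrial ribosomal protein mRNAs, 2 were higher and 6 lower after depletion, 10.3% in all, with a median of -0.016. Of 79 cytosolic ribosomal protein mRNAs tested, 0 were higher and 8 lower, 10.1% in all, with a median of -0.13, and 57 were below both controls in both siUPF1 libraries. Over all genes 16.0% were higher and 5.51% lower, and 18.5% were below both controls. The subunits of complexes IV and V had medians of -0.11 and -0.12, and complexes I and III lay near 0. After overexpression, 0 members of any of these related lists passed an unadjusted limma p of 0.05, and their medians lay between -0.021 and 0.033.

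The siRNA and vector groups also differed in level, a comparison outside the study's design that was not tested. The mean was lower in MYC than in siControl for 59 of 79 members (74.7%), with a median log2 difference of -0.12, and for 58.0% of 13412 genes, with a median of -0.055. Summed over the members, siControl reached 7958 and 7952 FPKM, siUPF1 7936 and 7568, MYC 7406 and 7458, and MYC-UPF1 7319 and 7408. The lower sum in siUPF1 replicate 2 lay in complexes II, IV and V, with 2411 FPKM in complex V against 2666 in replicate 1. Complex I was at 2866 FPKM in replicate 2 and 2855 in replicate 1. As a share of all summed FPKM the members did not fall, at 1.78% in siUPF1 replicate 1 and 1.87% in replicate 2.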

How the data were processed

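RNA-seq of Huh7 cells gave 8 libraries in 4 groups of 2, grouped by the treatment in the labels. Libraries were made with a stranded mRNA kit. According to the submitters' processing notes and the methods, the authors trimmed reads with Trimmomatic 0.38, aligned them to hg19 with HISAT2 2.1.0, assembled transcripts with StringTie 1.3.4d and deposited FPKM values per gene. The notes list the mouse build mm10 beside hg19, and hg19 was taken from the methods. Whether strand was used in counting is not given in the sources used here. The tables of the whole series and the single-library files held the same values, with 0 differences. No gene was listed at 0 in any library.

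Values were analysed as log2(FPKM + 1), on which changes of weakly expressed genes are understated, with limma 3.58.1 (R 4.3.3, lmFit, then eBayes fitted with a trend of variance on mean). Genes with a mean of at least 0.5 FPKM over the 4 libraries compared were kept, and all 79 members passed. An unadjusted p of 0.05 was read beside a Benjamini-Hochberg adjusted p of 0.05 over all genes tested. The difference between comparisons was a contrast over the 8 libraries. No model of counts was run, since the values are not counts. Positions, GC content and length came from GENCODE release 44 on GRCh37, matched for 15998 symbols and all 79 members. Promoters came from RefSeq, with 13 members unmatched. The fit was also run on simulated libraries with known changes. Their noise was drawn independently for each gene, unlike the GC-linked gaps between the real replicates. The simulation therefore does not vouch for the p-values given here.

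Genes were named by fixed rules: members with the lowest p under 0.05 whose treated libraries lay beyond both controls, the most and least abundant of each complex, alternative forms of a subunit, the 4 subunits of complex II, and UPF1. Other genes were picked once their values were known. The members and all lists were chosen with earlier results of these data known. Alternatives were another pseudocount (0.1), other FPKM minimums, quantile normalization, median centring, no trend, a replicate block, removal of the GC and length trend (loess, span 0.5), all 8 libraries in 1 fit, a minimum fold of 1.2, and fits that each omitted 1 library. The crossed pairing, and the block joined with the GC removal for the difference, were added after the data were seen.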

Additional observations from a re-analysis of the deposited data

How the results depend on the processing

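Subunit mRNAs passing an adjusted limma p of 0.05 numbered 0 in every alternative that kept all libraries, for depletion, overexpression and their difference. After depletion, 2 members were higher and 5 lower in the values reported, beside 21.5% of all genes called. Removing the GC and length trend left 2 lower, also beside the replicate block, where 22.6% and 20.4% of all genes were called. The number lower was 8 with a minimum of 5 FPKM, 10 with median centring and 3 without the mean-variance trend. The shares of all genes called in those fits were 23.6%, 21.2% and 21.4%, beside 14.1%, 15.2% and 6.33% of members. With all 8 libraries in 1 fit, 4 were higher and 12 lower (20.3% of members, 22.5% of all genes). Over all genes, 2218 were higher and 821 lower in that fit. The median log2 fold change was -0.053 with median centring. After overexpression, 2 were lower with the GC and length trend removed. For the difference, 2 were lower with that trend removed, also beside the block. It had 2 higher and 9 lower with median centring (median -0.075), and 3 higher and 7 lower with quantile normalization (median -0.062). Over all genes, the difference had 1107 higher and 776 lower with median centring, and 1024 and 907 with quantile normalization.

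Same-numbered replicates were not paired: their deviations from the group means correlated at -0.13 in depletion and -0.57 in overexpression, and nothing in the labels ties the numbers. With the replicate block 3 members were higher and 6 lower after depletion, 0 and 0 after overexpression, and 6 and 4 for the difference. In these fits 19.1% of all genes were called after depletion and 1.28% after overexpression. For the difference, 1482 of 13412 genes were higher and 393 lower. A crossed pairing gave 2 higher and 7 lower after depletion (11.4% of members, 22.9% of all genes), and 2 higher and 5 lower after overexpression (8.86% of members, 9.26% of all genes).

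Leaving out each library in turn moved depletion from 0 to 12 members higher and from 0 to 25 lower, from 0 to 31 past the adjusted threshold, and the median from -0.080 to 0.0039. Overexpression moved from 0 to 2 higher and from 0 to 4 lower, with medians from -0.022 to 0.013. The difference moved from 0 to 12 higher and from 0 to 19 lower, from 0 to 6 adjusted, and in median from -0.074 to 0.018. The highest numbers for depletion and the difference came without siUPF1 replicate 1, and those for overexpression without MYC replicate 1. Among the fits that omitted a library, the share of all genes called was also highest in these. The rise in numbers was therefore not confined to the subunits. The cause was not tested.

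Among the named members, signs turned only where a member was not called in that comparison. For depletion with the GC and length trend removed, with or without the replicate block, ATP5MG was at 0.091, COX7A2L at 0.087 and COX6A1 at -0.0032. With median centring COX6A1 was at -0.027, COX6B1 at -0.016 and UQCRHL at -0.021, and UQCRHL was at -0.067 with quantile normalization. For overexpression with that trend removed, with or without the replicate block, ATP5F1E was at -0.0098, ATP5MC3 at -0.036, COX7A2L at -0.026, NDUFB3 at -0.0029 and NDUFA13 at 0.011. With quantile normalization COX7B was at 0.028, NDUFA13 at 0.0081, NDUFA2 at 0.025, SDHB at 0.016 and SDHC at 0.015. With median centring COX7B was at 0.000254 and UQCRHL at 0.0065, and UQCRHL was at 0.013 with a pseudocount of 0.1. Over the libraries left out in turn, depletion ranged from -0.022 to 0.069 for COX6B1, from -0.13 to 0.0016 for COX7A2L, from -0.28 to 0.50 for SDHC, from -0.52 to 0.041 for SDHD and from -0.059 to 0.096 for UQCRHL. Overexpression ranged from -0.057 to 0.10 for ATP5F1E, from -0.038 to 0.043 for ATP5MC3, from -0.0048 to 0.0065 for COX6A1, from -0.036 to 0.066 for COX7A2L and from -0.041 to 0.026 for COX7B. It ranged from -0.0078 to 0.087 for NDUFB3, from -0.15 to 0.029 for SDHA, from -0.049 to 0.015 for SDHB and from -0.23 to 0.20 for SDHC. It also ranged from -0.081 to 0.12 for UQCRB, from -0.033 to 0.11 for UQCRH and from -0.16 to 0.16 for UQCRHL.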
